A study of Mus musculus with 13 samples.

Results

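FS2-AEBP2 peaks without H3K27me3 are the sites at which tagged AEBP2 was called in mouse embryonic stem cells (mESCs) and no H3K27me3 peak was called. They were chosen by the peak calls themselves, as every peak of the FS2-AEBP2 list on chromosomes 1 to 19, X and Y that shared no base with a peak of either H3K27me3 list. Of the 2884 FS2-AEBP2 peaks, 460 met this rule and are called the members, 16.0% of the list (95% Wilson interval 14.7 to 17.3), while the other 2424 overlapped H3K27me3 by at least 1 bp. None of the 460 lay on chromosome Y.

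The study compared where AEBP2 and the mark H3K27me3 lie in the genome by chromatin immunoprecipitation followed by sequencing (ChIP-seq). Of its 13 samples, 5 had peak lists here: 1 of FS2-AEBP2, 2 of endogenous AEBP2 (replicates 1 and 2) and 2 of H3K27me3 (replicates 1 and 2). The inputs, the SUZ12 samples and the AEBP2 KO samples were not analysed here. By the labels all 5 came from the 129/1 XY ES cell line of strain 129/1 with wild-type genotype, untreated as far as the labels say. By the study's methods, E14 mESCs were given a pCAG plasmid for full-length mouse AEBP2 whose N-terminus carries a joint Flag and StrepII (FS2) tag, so that the FS2-AEBP2 sample also made its own endogenous AEBP2, and the line named in the labels differs from the line named in the methods. For the FS2 ChIP, yeast tRNA and albumin were used to block the beads, and the ChIP of the endogenous proteins followed another protocol with an antibody against AEBP2, so tag, expression and protocol cannot be told apart in a comparison of the lists. The H3K27me3 antibody is labelled only as anti-H3K27, and the methylated form is named by the study. The FS2-AEBP2 list had no replicate. Nothing in the labels says that replicates were separate cultures, and the number of reads behind the lists is unknown.

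AEBP2 is an accessory subunit of Polycomb repressive complex 2 (PRC2), the enzyme complex that places methyl groups on lysine 27 of histone H3, and it is best known in mESCs from CpG-rich promoters of silent developmental genes. RNA polymerase III (Pol III) transcribes tRNA genes and a few other short non-coding RNA genes. A tRNA gene carries its promoter inside the transcribed part, as an A box and a B box that the factor TFIIIC binds, and transcription ends at a short run of T after the gene.

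Many of these peaks lay on tRNA genes. GENCODE annotation of this build lists no nuclear tRNA genes, so tRNA-like genes were found by a search of the mm9 sequence for the T arm, which holds the B box, and for the stems of a tRNA cloverleaf. The search found 369 tRNA-like genes with 46 anticodons, and RefSeq lists 408 nuclear tRNA genes in a later build (GRCm38.p6). Some of the tRNA-like genes in the tRNA-bearing peaks with the highest FS2-AEBP2 scores are shown here because the strongest peaks without H3K27me3 lay on them. Each is written 5′ to 3′ on its own strand, and the 11 capital letters mark the B box.

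Tyr-GTA, chr13:23524859-23524946, minus strand: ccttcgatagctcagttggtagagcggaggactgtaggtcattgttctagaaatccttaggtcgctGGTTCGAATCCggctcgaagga
Tyr-GTA, chr13:23558945-23559034, plus strand: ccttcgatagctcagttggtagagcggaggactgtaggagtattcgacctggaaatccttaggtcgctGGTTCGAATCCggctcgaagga
Leu-TAA, chr19:12085576-12085658, minus strand: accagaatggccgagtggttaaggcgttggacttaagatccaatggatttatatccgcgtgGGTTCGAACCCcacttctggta
Met-CAT, chr3:90279782-90279853, minus strand: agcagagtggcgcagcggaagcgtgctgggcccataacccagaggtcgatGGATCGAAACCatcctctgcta
Val-CAC, chr11:48632044-48632116, plus strand: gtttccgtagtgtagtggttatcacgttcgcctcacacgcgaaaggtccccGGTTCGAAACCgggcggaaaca
Arg-ACG, chr13:23538661-23538733, minus strand: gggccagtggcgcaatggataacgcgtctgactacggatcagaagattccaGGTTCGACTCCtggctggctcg
Ser-GCT, chr13:23613739-23613820, plus strand: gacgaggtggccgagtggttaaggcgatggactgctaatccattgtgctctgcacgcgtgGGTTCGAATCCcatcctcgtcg

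The search placed an intron of 15 and 17 bp after the anticodon of these Tyr-GTA genes. Below stand genes of the groups that had no FS2-AEBP2 peak, the commonest Cys-GCA sequence of chromosome 6 (29 identical genes in the genome) and the commonest Ala sequence of chromosome X (3 identical genes), in the same notation.

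Cys-GCA, chr6:48083936-48084007, plus strand: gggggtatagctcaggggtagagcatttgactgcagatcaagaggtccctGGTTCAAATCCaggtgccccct
Ala-CGC, chrX:132913905-132913976, minus strand: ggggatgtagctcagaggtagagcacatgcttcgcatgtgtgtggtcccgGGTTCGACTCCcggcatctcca

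A tRNA-like gene lay in 143 of the 460 peaks, or 31.1% (27 to 35.5), against 5.06% of all FS2-AEBP2 peaks. Among the 2424 FS2-AEBP2 peaks with H3K27me3 it lay in 3, or 0.124% (0.0421 to 0.363). The difference was 31 percentage points (95% Newcombe interval 26.9 to 35.3). All such intervals treat peaks as independent and cover counting error only, since peaks of 1 list are not replicates. Of the 143 peaks, 111 held 1 tRNA-like gene, 23 held 2 and 9 held 3 or more, up to 4. Seen from the genes, 186 of the 369 tRNA-like genes lay in such a peak, 50.4%, against 0.711% of protein-coding promoters.

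The 3 tRNA-bearing peaks that did overlap H3K27me3 were all in tRNA clusters. The one at chr13:23555283-23555489 (Glu-TTC, score 36) overlapped an H3K27me3 peak by 84 bp of its 207 bp. The one at chr11:68932288-68932469 (Gly-GCC, score 20) lay wholly inside one. The third, at chr13:23377180-23378526 (Val-AAC and Ala-AGC, score 6), overlapped by 1168 of its 1347 bp. H3K27me3 peaks held 2 of the 369 tRNA-like genes in replicate 1 and 4 in replicate 2.

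The FS2-AEBP2 score, the whole number the peak caller gave each peak on a scale that is not stated, was used only to describe peaks within this list. The 460 peaks had a median score of 7 (1 to 68) and the peaks with H3K27me3 one of 9 (1 to 130). The 143 peaks with a tRNA-like gene had a median of 18 and quartiles of 12 and 29. The 115 further peaks at protein-coding promoters had a median of 6 (4 and 9), and the 184 peaks with neither of these, no annotated Pol III transcript and no tandem tract had a median of 5 (4 and 7). At a score of 10 or more 119 of 178 peaks held a tRNA-like gene, and at 30 or more 32 of 34 did.

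**Figure D1:**
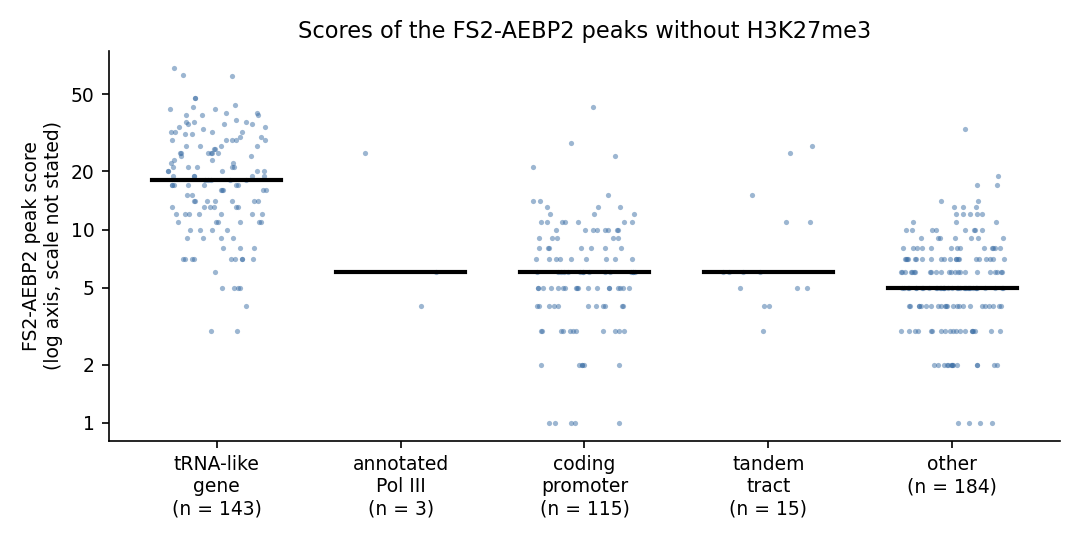
FS2-AEBP2 peak score (log axis, scale not stated) of each of the 460 peaks without H3K27me3, 1 point per peak, in classes that do not overlap. The bar is the median, which was 18 for peaks with a tRNA-like gene, 6 for protein-coding promoters and 5 for the remaining peaks.

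Of the 10 highest-scoring peaks, 9 held a tRNA-like gene. The highest, chr13:23524821-23525037, covered the first Tyr-GTA gene above with a score of 68, which ranked 70 among the 2884 peaks. Endogenous AEBP2 had no peak there in replicate 1 and a score of 10 in replicate 2. The second Tyr-GTA gene, at chr13:23558832-23559057, had an FS2-AEBP2 score of 63, and scores of 4 and 18 in endogenous replicates 1 and 2. So both tyrosine genes had endogenous AEBP2 in replicate 2, and the first lacked it in replicate 1.

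A score of 48 was shared by a pair of peaks that each held several genes. The peak at chr19:12085553-12086566 held Leu-TAA, Arg-TCT and Val-TAC and had endogenous scores of 1 and 14. The peak at chr11:48647365-48648105, within the gene Trim7, held Lys-CTT and Ala-TGC and had scores of 10 and 11. The initiator-type Met-CAT gene at chr3:90279773-90279964, by the promoter of Ilf2, scored 44 for FS2-AEBP2 and 8 and 14 for endogenous AEBP2. The Val-CAC peak at chr11:48631943-48632151 scored 43, with 13 and 8. The Arg-ACG peak at chr13:23538599-23538823 scored 42 and had no endogenous peak in either replicate, and the Ser-GCT peak at chr13:23613677-23613864 scored 42 with a peak in replicate 2 only (13). The 1 peak of the 10 without a tRNA-like gene lay at the promoter of Odc1, which encodes ornithine decarboxylase, the enzyme that makes putrescine (chr12:17551443-17552167, FS2-AEBP2 score 43, endogenous scores 13 and 22). Across these 10, replicate 1 had a peak at 7 and replicate 2 at 9.

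The peaks were short. Of the 460 peaks, 225 were under 200 bp long (quartiles 145 and 392 bp), and the median length was 1136 bp over the peaks with H3K27me3. Among the 111 peaks with 1 tRNA-like gene, 85 contained the whole gene. The peak centre lay within 100 bp of the middle of the gene in 102 of the 111, or 91.9%. These peaks were picked for overlap with the gene and had a median length of 192 bp. A centre near the gene is thus largely fixed by that choice. The centre lay inside the gene in 50, upstream of it in 44 and downstream of it in 17, with a median of 11.5 bp after the first base (quartiles −11.8 and 39.5).

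**Figure D2:**
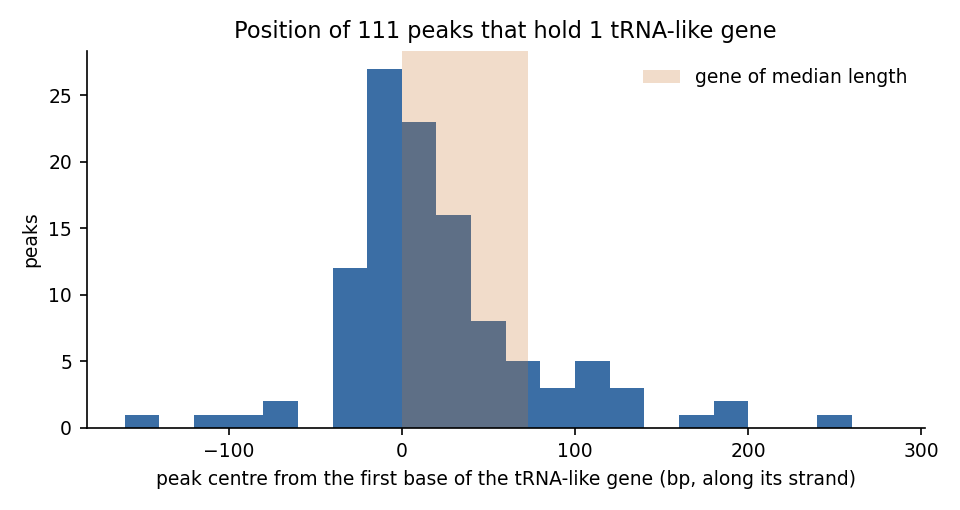
Distance in bp from the first base of the tRNA-like gene to the centre of the peak, along the gene's strand, for the 111 peaks with 1 such gene (20 bp bins). The shaded band is a gene of median length, and the centres crowd at its start, with a median of 11.5 bp.

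The B box itself was frequent under these peaks. The 11-letter word GGTTCGANNCC, searched on both strands, was in 94 of the 460 peaks (20.4%) and in 27 of the peaks with H3K27me3 (1.11%), against 4.20% of all FS2-AEBP2 peaks. All 94 also held a tRNA-like gene, so the word added no site that the gene search had missed. Of all genome windows of the median length of these peaks, 0.0440% held the word. The tRNA-like search reads this place too, so word and gene overlap by construction, and other B box variants such as that of the Met-CAT gene above are not counted by the word.

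Not every tRNA-like gene had a peak. The 186 genes in a peak without H3K27me3 and the 183 others were compared for what the rule had not used. Of the others, 4 lay in an FS2-AEBP2 peak with H3K27me3. A run of 4 T within 30 bp after the gene, the letters of a Pol III terminator, stood after 174 of the 186 (93.5%) and after 153 of the 183 (83.6%), a difference of 9.94 points (3.47 to 16.6). The full B box word was in 131 (70.4%) against 96 (52.5%), a difference of 18.0 points (8.05 to 27.4). A full sum of 21 stem pairs was reached by fewer of the genes in peaks (54.8%) than of the others (74.3%). An intron lowers this sum, so the 22 genes with an intron count as not full even where every stem is paired.

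The genes outside the members were concentrated in a few families. Of the 50 Cys-GCA genes 2 lay in a peak, and of the 42 Cys-GCA genes on chromosome 6 between 47928996 and 48313602 none did. None of the 12 Ala genes on chromosome X between 132892141 and 133124975 lay in one either, and endogenous AEBP2 had no peak at any of these 54 genes in either replicate. Without both groups, which were picked after the values had been seen, 186 of the remaining 315 tRNA-like genes (59.0%) lay in a peak. Of the 129 genes then left outside the members, 84 held the B box word (65.1%). The difference from the genes in members became 5.31 points (−5.02 to 15.8), since 1 of the 42 Cys-GCA genes holds it. The difference for the T run was then 12.2 points (4.84 to 20.2). That for a full stem sum, which no gene with an intron reaches, was −14.9 points (−25.1 to −4.0). Among the families of 10 or more genes, the share was highest for Arg (21 of 24), Ser (17 of 20), Met (12 of 15), Leu (17 of 23) and Val (13 of 18). It was lower for Lys (6 of 20) and Gly (8 of 25). All 6 Arg-ACG, 5 Arg-TCG, 4 Leu-CAA and 3 Ser-TGA genes had a peak, and 1 of 9 Lys-TTT genes did.

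**Figure D3:**
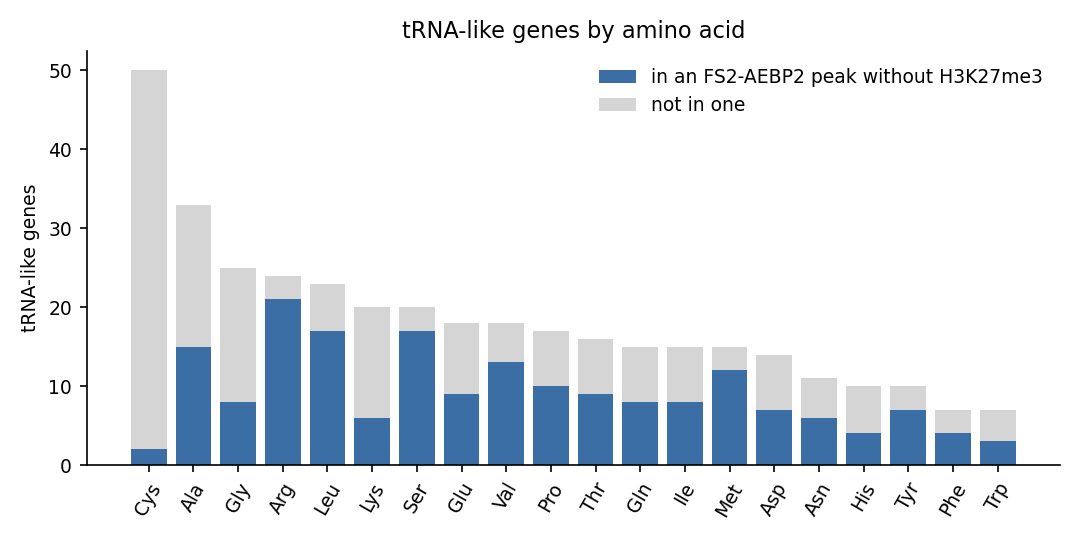
Number of tRNA-like genes for each amino acid (1 gene with a suppressor anticodon left out), with those in an FS2-AEBP2 peak without H3K27me3 in blue and the rest in grey. Cys stands out with 2 of 50 genes in a peak, while Arg had 21 of 24.

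Repeated sequence differed most at the Cys-GCA genes of chromosome 6 and the Ala genes of chromosome X. Stretches of 31 bases that occur more than once in the genome made up a median of 18.6% of the gene with 100 bp on either side for the 186 genes in a peak (quartiles 12.5 and 19.8), and 21% for the 183 others (18.1 and 73.6). The median was 58.5% for the Cys-GCA genes of chromosome 6 and 77.1% for the Ala genes of chromosome X. For the other 129 genes outside the members the median was 19.4%, with quartiles of 17.1 and 31.8 that were still above those of the genes in a peak. How the reads that fit several places were treated is not given in the sources used here, and the part of this in the missing peaks was not tested. Genes whose own sequence occurs 2 or more times in the set lay in a peak in 123 of 238 cases (51.7%), against 63 of 131 (48.1%) for sequences found once. A gene with another tRNA-like gene within 1 kb lay in a peak in 102 of 161 cases (63.4%), and one without in 84 of 208 (40.4%). Both splits include the Cys-GCA genes of chromosome 6 and the Ala genes of chromosome X. Neighbouring genes can also share 1 peak, as 23 peaks held 2 genes and 9 held 3 or more.

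Endogenous AEBP2 was used by no part of the rule and was called at many of the same tRNA genes. A replicate 1 peak overlapped 53 of the 143 peaks with a tRNA-like gene, or 37.1% (29.6 to 45.2), and a replicate 2 peak 92, or 64.3% (56.2 to 71.7). Both lists had a peak at 47 and neither had one at 45. Among the 317 other peaks without H3K27me3, 28 had a replicate 1 peak (8.83%) and 87 a replicate 2 peak (27.4%). The difference was 28.2 points (19.9 to 36.8) in replicate 1 and 36.9 points (27.3 to 45.6) in replicate 2. It was not taken at equal FS2-AEBP2 score, and the tRNA-bearing peaks had the higher scores (median 18, against 7 for all 460). Over the 460, overlap rose with score. From scores of 1 to 4 to scores of 20 to 49 it went from 4.00% to 42.9% in replicate 1 and from 23.0% to 77.1% in replicate 2. The part of score in the difference was not tested. The endogenous peaks at the tRNA-bearing sites were near the middle of their lists. Their median score was 8 in replicate 1 and 9 in replicate 2, and the median of either whole list was 7.

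**Figure D4:**
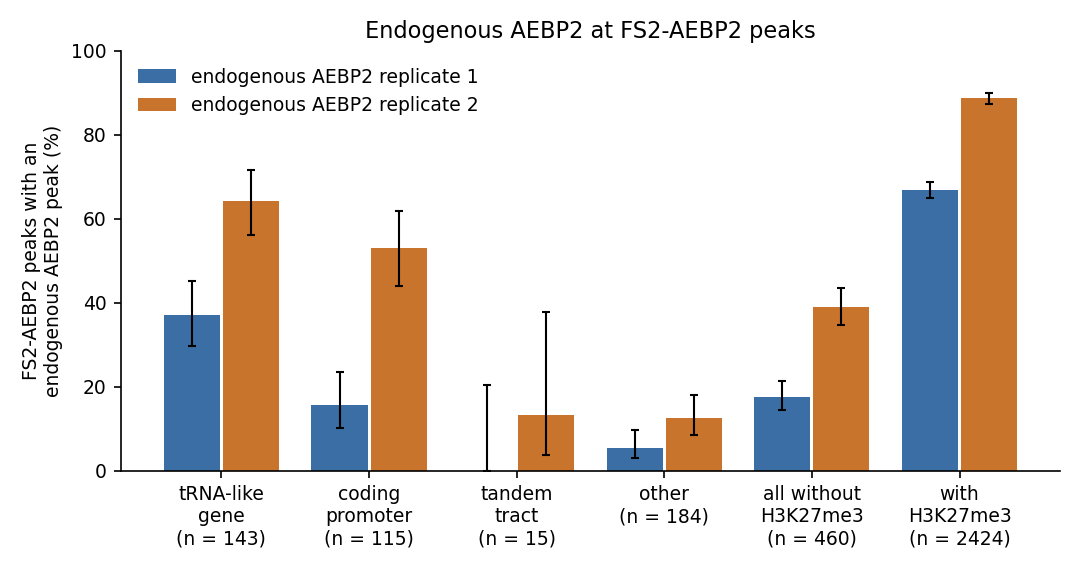
Share of FS2-AEBP2 peaks (%) that overlap a peak of endogenous AEBP2 replicate 1 or 2, for classes of the 460 peaks without H3K27me3, for all 460 and for the 2424 peaks with H3K27me3, with the number of peaks under each class. Bars start at 0 and error bars are 95% Wilson intervals; the share was 64.3% in replicate 2 at tRNA-like genes and 12.5% at the remaining peaks. The 3 peaks at annotated Pol III transcripts are not drawn as a class of their own.

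Counted by gene, replicate 1 had a peak at 87 and replicate 2 at 139 of the 369 tRNA-like genes, and FS2-AEBP2 at 190. Of the 186 genes in an FS2-AEBP2 peak without H3K27me3, 79 (42.5%, 35.6 to 49.7) had a replicate 1 peak and 120 (64.5%, 57.4 to 71.0) a replicate 2 peak. Of the 183 others, 8 (4.37%, 2.23 to 8.39) and 19 (10.4%, 6.75 to 15.6) did. All 3 AEBP2 lists had a peak at 68 genes and none of them at 158, and 21 genes had an endogenous peak but no FS2-AEBP2 peak. Tyr-GTA was called in FS2-AEBP2 at 7 of 10 genes, in replicate 1 at 5 and in replicate 2 at 6. Val was called at 14 of 18 genes in FS2-AEBP2, but at 3 in replicate 1 and 6 in replicate 2.

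The weight of the tRNA genes differed between the lists. Of the endogenous AEBP2 peaks without H3K27me3, 52 of 772 in replicate 1 (6.74%, 5.17 to 8.73) and 93 of 3090 in replicate 2 (3.01%, 2.46 to 3.67) held a tRNA-like gene. The share among the FS2-AEBP2 peaks without H3K27me3 was higher by 24.4 points (19.8 to 29) and 28.1 points (24 to 32.5). The lists differ in antibody and protocol, and their depths and thresholds are not known, so these cannot be told apart.

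Over all 460 peaks, 81 overlapped endogenous replicate 1, or 17.6% (14.4 to 21.4), against 59.0% of all FS2-AEBP2 peaks, and 179 overlapped replicate 2, or 38.9% (34.6 to 43.4), against 80.8%. Among the peaks with H3K27me3 these shares were 66.9% and 88.7%. The difference was −49.3 points (−53.0 to −45.1) in replicate 1 and −49.8 points (−54.3 to −45.1) in replicate 2. No endogenous peak was called at 269 of the 460 (58.5%).

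The lower overlap was also present at equal FS2-AEBP2 scores. At scores of 5 to 9 replicate 2 overlapped 27.5% of the 182 peaks without H3K27me3 and 82.3% of the 857 with it, a difference of −54.8 points (−61.2 to −47.4). At scores of 20 to 49, where 62 of the 70 peaks without H3K27me3 held a tRNA-like gene, the shares were 77.1% and 98.3% and the difference −21.1 points (−32.3 to −12.7). In replicate 1 the difference was −41.0 points (−46.5 to −33.4) at scores of 1 to 4 and −51.0 points (−62.1 to −39.0) at 20 to 49, so the smaller gap at high scores was seen in replicate 2 and not in replicate 1. The lower overlap was present within lengths too, but the difference was mostly smaller. Over all peaks it was −49.3 points in replicate 1 and −49.8 points in replicate 2. Among peaks under 200 bp replicate 2 overlapped 26.2% of 225 and 57.5% of 233, a difference of −31.3 points (−39.4 to −22.4). Across the bands of length the replicate 2 difference ran from −26.8 to −34.5 points. Below 800 bp the replicate 1 difference ran from −11.1 points (−19.7 to −1.46) to −21.9 points (−32.0 to −9.77). At 800 bp or more it was −54.2 points (−66.0 to −38.9).

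**Figure D5:**
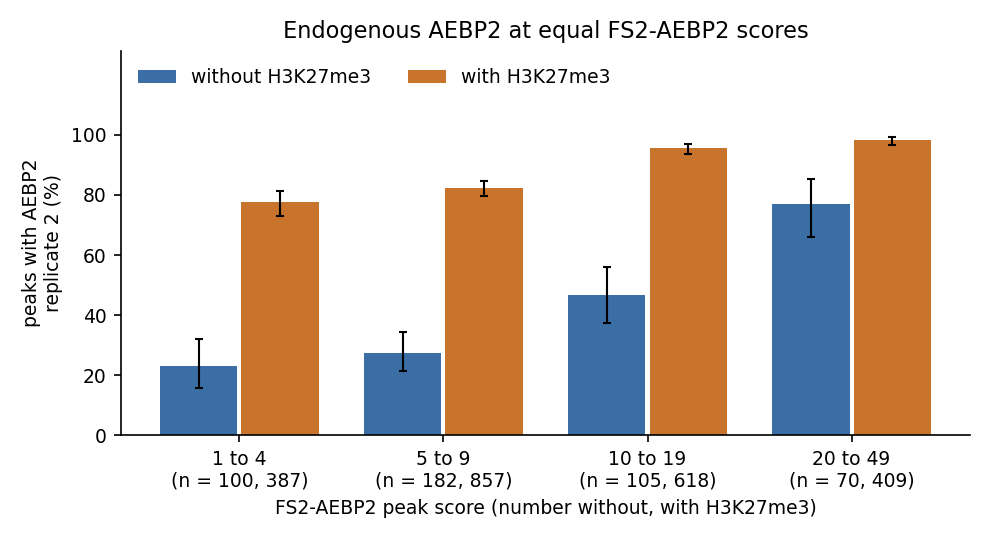
Share of FS2-AEBP2 peaks (%) with an endogenous AEBP2 replicate 2 peak in 4 bands of FS2-AEBP2 score, without and with H3K27me3, with the number of peaks without and with the mark under each band. Error bars are 95% Wilson intervals, and the peaks without the mark have the lower share in each band, 23.0% against 77.5% at scores of 1 to 4 and 77.1% against 98.3% at 20 to 49.

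The 10 peaks with the highest replicate 1 score among the 69 that both endogenous lists held included 6 with a tRNA-like gene. The 2 highest were promoters. At the shared start of Exoc2, which encodes a subunit of the exocyst, and Gm5447 (chr13:31065863-31066143) the FS2-AEBP2 score was 10, while the endogenous scores were 148, the highest of all 2877 peaks of replicate 1, and 124, which ranked 12 of 6779 in replicate 2. At the start of Ccdc59 and BC067068 (chr10:105278174-105278513) the FS2-AEBP2 score was 3, and the endogenous scores were 92, which ranked 11, and 117. Both sites were near the top of the endogenous lists, and the second had an FS2-AEBP2 score below the median of the members. Odc1 was also among the 10. The tRNA-bearing ones were led by chr14:51684509-51684974 (Pro-AGG and Thr-TGT), with an FS2-AEBP2 score of 14 and endogenous scores of 18 and 21, and by chr1:172963881-172964204 (Asn-GTT), with 25 and scores of 17 and 7.

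Another of these 10, chr8:113586330-113586528, had an FS2-AEBP2 score of 33 and endogenous scores of 14 and 19, and no annotated gene. A looser search, with fewer stem pairs required and a G allowed in the T loop, was added after the data had been seen. It found 67 further tRNA-like sequences in the genome, of which this was the only one in a peak without H3K27me3. Its sequence is shown in the same notation, since the main search had placed no gene at this site.

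Gly-GCC, chr8:113586461-113586531, plus strand: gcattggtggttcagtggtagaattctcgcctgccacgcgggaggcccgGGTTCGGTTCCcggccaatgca

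Peaks at other annotated Pol III transcripts were rare. The annotation holds 1650 entries for 7SK, U6, U6atac, Y RNA, vault, RNase P, RNase MRP, 5S rRNA and signal recognition particle RNA. Of these, 3 lay in a peak without H3K27me3, in 0.652% of the 460 (0.222 to 1.90), against 0.104% of all FS2-AEBP2 peaks. The entries include many copies of 1 RNA, such as 331 named 7SK, and which of them are transcribed was not tested. The count of 3 therefore does not give the share of active genes with a peak. U6atac, an RNA of the minor spliceosome, lay under a peak at chr2:27395315-27395512 with a score of 25 and no endogenous peak. 7SK, which holds the elongation factor P-TEFb inactive, lay under one at chr9:78023109-78023501 with a score of 6, no replicate 1 peak and a replicate 2 score of 7. A Y RNA gene, of the small RNAs bound by the Ro protein, lay under one at chr6:47738121-47738278 with a score of 4 and no endogenous peak.

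Some of the peaks lay in clusters. With gaps of at most 100 kb, 17 clusters of 3 or more peaks held 120 of the 460 (26.1%), and 10 of the clusters held tRNA-like genes. The share in clusters was not counted for the other FS2-AEBP2 peaks, so it does not show that the members cluster more than those. Chromosome 13 carried 74 of the 460 peaks (16.1%) and 5.07% of the peaks with H3K27me3. Its 3 clusters held 58 peaks, each with a tRNA-like gene.

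The largest cluster ran from 23362275 to 23622305 on chromosome 13, with 25 peaks on 32 of the 44 tRNA-like genes there, FS2-AEBP2 scores from 4 to 68 (median 25), replicate 1 peaks at 5 and replicate 2 peaks at 12. The next, from 21974771 to 22142743, had 21 peaks on 21 of 28 tRNA-like genes among 5 histone genes, with scores of 7 to 36, replicate 1 peaks at 1 and replicate 2 peaks at 7. The third, from 21252622 to 21371755 by Trim27, had 12 peaks on 15 of 22 genes, with scores of 8 to 35. H3K27me3 peaks were also called inside these 3 intervals, 8 in each of the first pair and 2 in the third, counting both replicates.

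On chromosome 11, the interval from 68770416 to 68938836, which holds Aurkb, Per1 and Hes7, had 9 peaks, of which 7 lay on 15 of 18 tRNA-like genes, and 48620800 to 48670617 by Trim41 and Trim7 had 5 peaks, of which 4 lay on 6 of 7 genes. Smaller tRNA clusters lay at chr3:96206044-96305531 (6 peaks, 5 of them on 6 of 16 genes), chr14:51683450-51710397 (5 peaks, 6 of 7 genes), chr17:23677800-23687387 (5 peaks, 5 of 5 genes) and chr1:172963881-173041644 (4 peaks, 7 of 25 genes). In the chromosome 1 cluster 1 peak of 1322 bp spanned Leu-CAG, Asp-GTC, Gly-TCC and Glu-CTC with a score of 39 and endogenous scores of 9 and 18.

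Endogenous AEBP2 was called more often at the tRNA-bearing peaks of chromosome 11 than at those of chromosome 13, a pair of chromosomes picked after the values had been seen because they carry the most such peaks. Replicate 1 overlapped 11 of 19 on chromosome 11 (57.9%, 36.3 to 76.9) and 10 of 59 on chromosome 13 (16.9%, 9.48 to 28.5), and replicate 2 15 of 19 (78.9%) and 26 of 59 (44.1%). The difference was 40.9 points (16.5 to 61.3) in replicate 1 and 34.9 points (9.26 to 52.2) in replicate 2. The median FS2-AEBP2 score of these peaks was 23 on chromosome 11 and 16 on chromosome 13.

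The 7 clusters without tRNA-like genes were small. Within St5 and outside its exons, 4 peaks lay between 116753515 and 116759100 on chromosome 7 with scores of 4 to 9 and no endogenous peak, and the peak at Rpl27a joined their cluster. Next to Klrb1b and Klrb1c on chromosome 6 (128710766 to 128793665), 4 peaks scored 2 to 19, with a replicate 1 peak at 1 and replicate 2 peaks at 3. Malat1 and Neat1, long non-coding RNAs of nuclear speckles and paraspeckles, lay in a cluster of 3 on chromosome 19. The Malat1 peak, chr19:5800680-5802190, scored 17 with endogenous scores of 10 and 19, and the Neat1 peak, chr19:5844143-5844747, scored 3 with a replicate 1 score of 5 and no replicate 2 peak. The remaining 4 lay at Mllt10 on chromosome 2, by Actb on chromosome 5, at chr12:9431152-9435069 with no annotated coding gene and no endogenous peak, and in Mid1 on chromosome X, where replicate 1 had a peak at 2 and replicate 2 at all 3.

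Protein-coding promoters, 1 kb on either side of a start site, were at 140 of the 460 peaks, or 30.4% (26.4 to 34.8), against 50.8% of all FS2-AEBP2 peaks. The share was 54.7% with H3K27me3, a difference of −24.3 points (−28.8 to −19.5). Within lengths, the shares were 25.8% and 33.5% among peaks under 200 bp, a difference of −7.70 points whose interval (−15.9 to 0.674) includes 0. Among peaks of 800 bp or more they were 43.9% and 63.3%, a difference of −19.4 points (−33.7 to −4.19). Of the 140, 25 also held a tRNA-like gene. A CpG-island-like region was in 44.3% of the 460 (39.9 to 48.9), against 73.1% of all FS2-AEBP2 peaks and 78.5% of those with H3K27me3, a difference of −34.2 points (−38.9 to −29.3). Within lengths the difference was smaller, from −7.24 points (−17.8 to 3.47) for peaks of at least 200 and under 400 bp to −18.9 points (−34.2 to −7.14) at 800 bp or more. At the 115 promoter peaks without a tRNA-like gene 91.3% had one, and at the 143 with a tRNA-like gene 50 did (35%). For comparison, 55% of all promoters carry such a region.

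The 115 promoter peaks without a tRNA-like gene had a replicate 1 peak at 18 (15.7%, 10.1 to 23.4) and a replicate 2 peak at 61 (53%, 44.0 to 61.9). Against the tRNA-bearing peaks the difference in replicate 1 was 21.4 points (10.6 to 31.3). In replicate 2 it was 11.3 points, with an interval of −0.745 to 23.0 that includes 0. Neither difference was taken at equal FS2-AEBP2 score.

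Among the gene lists, ribosomal protein genes were the best represented. Members were at 8 of 91 promoters with symbols starting Rpl (8.79%) and at 4 of 58 starting Rps (6.90%, or 4 of 49 without the Rps6k kinases), where 0.711% of all 22367 protein-coding promoters had one. No FS2-AEBP2 peak with H3K27me3 was at any of them. The genes were Rpl3, Rpl4, Rpl12, Rpl22l1, Rpl27a, Rpl28, Rpl35a, Rplp0, Rps15a, Rps19, Rps20 and Rps29, which encode proteins of the cytosolic ribosome. Their scores ran from 2 to 21 with a median of 5.50, and endogenous AEBP2 had a peak at 2 of the 12 in replicate 1 and at 6 in replicate 2. Rpl3 was the strongest, at chr15:79913198-79914169 with a score of 21 and no endogenous peak. Rps20 (chr4:3762592-3762747) scored 11 with a replicate 2 score of 4, and Rpl27a (chr7:116662730-116663403) scored 10 with a replicate 2 score of 11. Stretches found more than once in the genome made up at most 14.3% of these 12 peaks. Over the whole lists, with or without H3K27me3, endogenous replicate 1 had a peak at 5 of 91 Rpl and 7 of 58 Rps promoters. Replicate 2 had one at 21 and 17. Of all 22367 protein-coding promoters, 2032 had a replicate 1 peak and 4983 a replicate 2 peak. H3K27me3 was at 1 of the 91 Rpl, 3 of the 58 Rps and 4432 of all 22367 promoters, so these whole-list shares are not like for like. The higher share at ribosomal protein genes was counted in the unreplicated FS2-AEBP2 list only. Endogenous peaks without H3K27me3 were not counted at these genes.

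Histone genes had 4 of 67 promoters at a member (5.97%). Hist1h1b and Hist1h1c, which encode linker histones, scored 12 and 11, Hist4h4 scored 4, and the peak by Hist1h4h lay on a Met-CAT gene. The translation initiation factor genes Eif4a1 and Eif4a2, which encode RNA helicases, scored 14 and 9, and were 2 of 58 promoters with symbols starting Eif (3.45%). The proteasome gene Psmb3, 1 of 52 Psm promoters (1.92%), lay beside an Asn-GTT gene whose peak scored 32. Zfp956 was 1 of 374 Zfp promoters (0.267%). The mitochondrial ribosome families Mrpl (47) and Mrps (30), and Pcdh, Olfr, Vmn1r, Vmn2r, Hox, Rhox, Xlr, Snrp and Ndufa, had no member, while 39 of 40 Hox promoters had an FS2-AEBP2 peak with H3K27me3. With 0.711% of all protein-coding promoters at a member, none in a family as small as Mrpl or Mrps is near that share.

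None of 11 PRC2 subunit promoters and none of 16 germ line promoters had a member, where 0.711% of all protein-coding promoters had one. For lists of this size, none is near that share. Of 23 pluripotency promoters 1 had a member, that of Klf2, a transcription factor of naive mESCs (chr8:74842966-74843384, score 11, no endogenous peak). Within the Aebp2 gene 1 peak was called, chr6:140582183-140582327, which overlapped an exon from 140582210 to 140582417, with a score of 6 and no endogenous peak in either replicate. FS2-AEBP2 was expressed from a plasmid that carries the Aebp2 coding sequence, and the part of plasmid DNA in this peak was not tested.

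At a score of 20 or more 65 of 73 peaks held a tRNA-like gene. Besides Odc1, U6atac, Rpl3 and the chromosome 8 Gly-GCC site, the 4 others, named after their values were seen, were the region shared by Zbtb37 and the snoRNA host Gas5 (chr1:162965274-162966248, score 28, no endogenous peak), the longest peak, described next, the promoter of Inhbb and a peak in Zfp532. SnoRNA genes lay in 5 of the 460 peaks (1.09%), against 0.208% of all FS2-AEBP2 peaks. The promoter of Polr3e, which encodes a Pol III subunit, was also a member, at chr7:128062239-128062369 with a score of 8 and no endogenous peak, and was likewise named after its values were seen.

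The 5 longest peaks had none of the tRNA-like genes. The longest, chr5:143581926-143585339, was 3414 bp with a score of 27, no replicate 1 peak and a replicate 2 score of 10. Next were the promoters of Gli2, a transcription factor of Hedgehog signalling (2864 bp, score 3, no endogenous peak), and Inhbb, which encodes an inhibin and activin subunit (2403 bp, score 24, endogenous scores 9 and 14). Eif4a2 (1797 bp, score 9, endogenous scores 7 and 4) and a peak overlapping Pura (1561 bp, score 8, none) followed. Gli2 lay 82987 bp from the nearest H3K27me3 peak and Inhbb 443 bp.

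Tandem repeats were not frequent. A perfect tandem tract of at least 24 bp with a unit of 1 to 6 bp was in 18 of the 460 peaks (3.91%, 2.49 to 6.10), against 22% of all FS2-AEBP2 peaks, 25.5% of those with H3K27me3 and 5.09% of genome windows of the median length of these peaks. Within lengths the shares were 3.56% and 3.43% among peaks under 200 bp, a difference of 0.122 points (−3.52 to 3.83). Among peaks of 800 bp or more they were 7.32% of 41 and 36.9% of 1506, a difference of −29.5 points (−34.9 to −17.2). Tracts of AC, or TG on the other strand, were in 8 peaks, with lengths of 25 to 55 bp and a replicate 2 peak at 1. The telomere-like unit AACCCT was in 2, at chr3:148715611-148715758 and chr13:111534545-111534691, with scores of 6 and 11 and no endogenous peak. The median peak had 0.944% of its 31-base stretches in more than 1 place in the genome, and 8 peaks had more than 50%, among them both telomere-like sites and the 7SK site.

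Of the 184 peaks with no tRNA-like gene, annotated Pol III transcript, protein-coding promoter or tandem tract, 46 held a CpG-island-like region. By position, 34 overlapped an exon of a protein-coding gene, 45 lay in an intron and the rest outside such genes. Replicate 1 had a peak at 10 (5.43%, 2.98 to 9.71) and replicate 2 at 23 (12.5%, 8.48 to 18.1). Their median length was 158 bp.

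The rule has a threshold of 1 bp. The peaks just inside it were chr2:21063361-21063486, which ended 2 bp from an H3K27me3 peak (score 4), the promoter of Cachd1 at 10 bp (score 5) and that of Dnajc22 at 61 bp (score 5). Just outside it, the smallest overlaps were 50 bp at the promoter of Fhod3 (score 4), 82 bp at Efha1 (score 6) and 84 bp at the Glu-TTC gene named above (score 36). Of the 460 peaks, 23 lay within 1 kb of H3K27me3 (5.00%), 66 within 5 kb (14.3%) and 239 within 50 kb (52.0%). The median distance was 28381 bp for the tRNA-bearing peaks and 62740 bp for the other promoter peaks.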

How the data were processed

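Per the labels, peaks were called by sample in mm9, and the submitters' processing notes name Bowtie, SAMtools, Picard and MACS2 2.0.10.2. Parameters and thresholds are not given in the sources used here. The authors deposited for each peak a start, an end and a whole-number score, which was compared only within a list. No list gives read counts, so depth is unknown and intervals cover counting error only. Replicate numbers of H3K27me3 follow the sample records, although the list names appear to swap them.

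Overlaps needed 1 bp. Genes came from GENCODE vM1, and promoters were 1 kb on either side of a protein-coding start. CpG-island-like regions were joined 500 bp windows, every 10 bp, with at least 55% GC and an observed to expected CpG of at least 0.65. tRNA-like genes needed 19.5 of 21 stem pairs (an intron lowered the sum) and an A in the T loop. A peak was put in the first class it met among tRNA-like gene, annotated Pol III transcript, promoter and tandem tract. Shares carry 95% Wilson intervals, and differences Newcombe intervals (Python 3.11.15, SciPy 1.17.1). No chance test was run. The overlap, tract and tRNA searches were tested on simulated data with known answers.

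The members and lists were chosen with earlier results of these data known. Named peaks were the 10 highest by score, the 5 longest, the 10 highest in AEBP2 replicate 1 among those in both AEBP2 lists, those with a Pol III gene (tRNA-bearing ones as counts and clusters), listed genes with a member at the promoter, every cluster, peaks at Aebp2 exons and those nearest the threshold. Of these, 1 of the highest peaks and 1 cluster are not reported here. Alternatives dropped an H3K27me3 replicate, excluded H3K27me3 within 5 kb, kept high scores, joined peaks or changed a width or threshold.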

Additional observations from a re-analysis of the deposited data

How the results depend on the processing

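Of 73 recomputed values over 13 results, 61 stayed within the interval of the value given, or within 1.5 times it for a count, and 12 moved. Restricting FS2-AEBP2 to scores no lower than its list median left 194 peaks and 10 clusters, and moved the share with a tRNA-like gene to 63.4%, with AEBP2 replicate 1 to 32.0%, with replicate 2 to 58.2%, and with mostly multi-copy sequence to 0.515%. With only AEBP2 peaks at or above the median score of their list, the shares with AEBP2 were 10.2% and 23.9%. A promoter of 2.5 kb on either side gave 35.9%, and CpG-island-like regions with an observed to expected CpG of at least 0.60 and 50% GC gave 55.4%; both alternatives admit more sequence by construction. The share of tRNA-like genes in a peak was 42.8% without H3K27me3 within 5 kb and 44.4% at the higher scores. The looser tRNA search, chosen after seeing the data, gave 31.3%. Leaving out either H3K27me3 list gave 497 to 509 peaks, 28.3 to 29% with a tRNA-like gene, 16.9 to 18.1% with AEBP2 replicate 1, 39.4 to 39.9% with replicate 2, and 19 to 20 clusters. No paired analysis was possible because the results come from no test and the FS2-AEBP2 list has 1 sample. The unreplicated list and unknown depth limit what a missing peak shows.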
